A study of Mus musculus with 6 samples.

Results

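The 8 genes of insulin and IGF (insulin-like growth factor) receptor signalling described here were measured in mammary epithelial organoids on lactation day 1: the receptor genes Insr and Igf1r, the receptor substrate genes Irs1 and Irs2, the kinase genes Akt1 and Akt2, Pik3r1 and Tbc1d4. They were taken by name from the deposited table, which holds FPKM (fragment numbers divided by gene length and by library total) of 17739 gene symbols. All 8 were present, and all 8 passed the filter of at least 1 FPKM in at least 3 of the 6 libraries, which left 9767 genes for testing. The organoids were fragments of epithelium freed by enzyme digestion, with glands of the second and the third pair used from each animal. The FVB mice, 3 labelled Nmi-/- and 3 labelled wild type, gave 1 library each. Nmi (N-myc interactor) is induced by interferons, and the submitters call its knockout conditional. The driver of the deletion, the exons removed and the age of the mice were not given in the sources used here. The comparison was made to ask how Nmi loss adds to excess proliferation of the gland.

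Insulin and the IGFs bind receptor tyrosine kinases, which phosphorylate IRS adaptor proteins. These recruit PI3-kinase, whose lipid product brings AKT kinases to the membrane, and AKT in turn phosphorylates many targets, among them the Rab regulator TBC1D4, also named AS160. In the lactating mammary gland, insulin and IGF1 act beside prolactin and glucocorticoid on the survival and the synthetic activity of alveolar cells.

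Nmi was listed at 0.188, 0.547 and 0.564 FPKM in Nmi KO replicates 1, 2 and 3, against 4.60, 2.82 and 2.32 FPKM in WT replicates 1, 2 and 3. The Nmi KO libraries were thus all below the WT libraries, as their labels say. Milk transcripts filled much of each library: 19 milk protein genes held 67.3%, 63.7% and 77.1% of the FPKM sum in Nmi KO replicates 1, 2 and 3, against 48.1%, 61.5% and 71.1% in WT replicates 1, 2 and 3. Nmi KO replicate 3 and WT replicate 1 stood at the 2 ends of this share. FPKM divides by a library total that includes the milk genes, and the log2 differences of the 8 genes were also computed without these 2 libraries. On the log2(FPKM + 1) scale used throughout, Nmi KO minus WT had a median of -0.21 over the 9767 genes, and 18.3% of them were above 0. The 4 epithelial markers summed to 653 to 2539 FPKM in Nmi KO and 1877 to 3969 FPKM in WT (over all libraries, Krt8 at 198 to 1515 FPKM, Epcam at 190 to 578 FPKM). The 4 alveolar luminal markers ran the other way, at 134164 to 199959 FPKM in Nmi KO and 79621 to 170571 FPKM in WT. Most of that sum was the milk genes Csn2 and Wap, while Elf5 was at 142 to 237 FPKM in Nmi KO and 159 to 173 FPKM in WT. The 5 basal markers summed to 291 to 1060 FPKM in Nmi KO and 372 to 768 FPKM in WT. Each of these sets overlapped between the genotypes. Of the adipocyte markers, Adipoq, Plin1 and Cfd were at or near 0 in all 6 libraries (at most 0.0957 FPKM), and Lep was at most 0.167 FPKM. Other members did not follow them: Lipe was at 7.99 to 23.3 FPKM and Slc2a4 at 1.09 to 2.18 FPKM over all libraries. The 7 adipocyte markers in the table summed to 166 to 460 FPKM in Nmi KO and 228 to 684 FPKM in WT, nearly all of it Fabp4, which endothelial cells also express. The 6 immune markers summed to 4.90 to 6.83 FPKM in Nmi KO and 7.26 to 7.43 FPKM in WT, without overlap. Most of this sum was Cd68, at 3.35 to 5.64 FPKM in Nmi KO and 6.84 to 6.94 FPKM in WT, while other members did not follow it: Csf1r was at 0.208 to 0.951 FPKM in Nmi KO and 0.188 to 0.318 FPKM in WT, and Cd3e at 0.0255 to 0.118 FPKM in Nmi KO and listed at 0 in WT. Ptprc, which all white blood cells carry, was at 0.303 FPKM or less, with its highest value in Nmi KO replicate 3. Fibroblast markers (32.2 to 59.1 FPKM in Nmi KO, 22.7 to 52.1 FPKM in WT) and endothelial markers (44.4 to 84.1 and 42.7 to 91.7 FPKM) overlapped between the genotypes. In bulk RNA, fewer cells of a type and less RNA in each cell cannot be told apart.

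No gene of the group passed the adjusted threshold between the genotypes (0 of 8, against 0 of 9767 genes, which is 0% of those tested; limma with Benjamini-Hochberg adjustment, adjusted p 0.768 to 0.963). At an unadjusted p under 0.05 there was 1 of the 8, Tbc1d4, which was higher in Nmi KO; of all genes tested 1.33% lay under that p, 0.184% higher and 1.15% lower in Nmi KO. Groups did not overlap for 1 of the 8, again Tbc1d4, against 0.778% of all genes higher and 3.83% lower in Nmi KO. The 8 fold changes ran from -0.31 to 0.67 on the log2 scale, 5 above 0, 3 below it and 6 above the all-gene median, with a median of 0.042 beside the -0.21 of all genes. Without Nmi KO replicate 3 and WT replicate 1 these medians were 0.066 for the 8 genes and 0.025 for all genes. For the 7 genes other than Tbc1d4, the unadjusted 95% confidence intervals included 0, and their half-widths were between 0.50 and 0.65. These widths are not the limit of detection, since the adjusted threshold asks for more. With 3 mice a group, 23% of simulated log2 changes of 1 passed it.

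**Figure D1:**
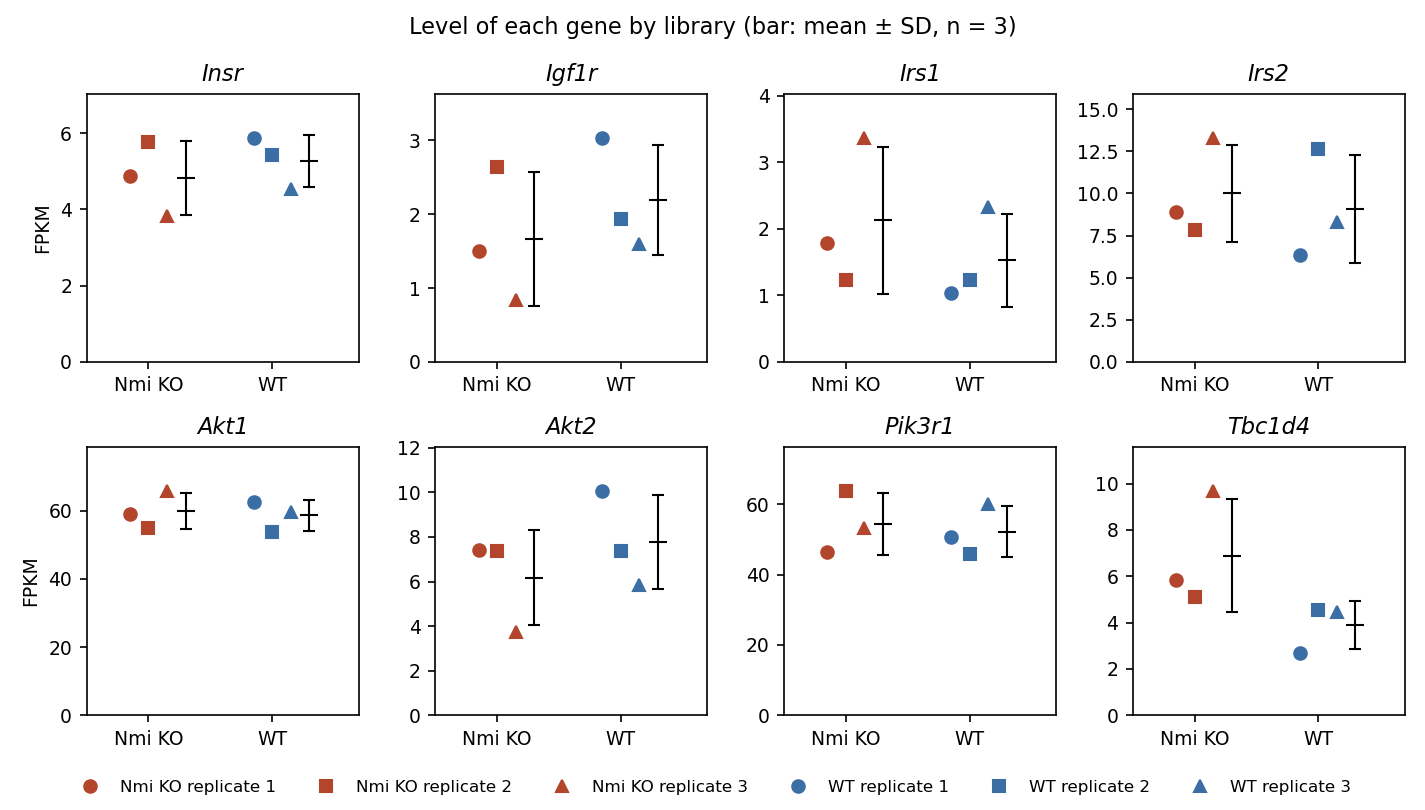
FPKM of each of the 8 genes (y axes, starting at 0) in the 3 Nmi KO and the 3 WT libraries; symbols mark the replicate, and the bar to the right of each group is the mean ± SD. Tbc1d4 is the gene whose groups do not overlap, and Akt1 is the one with the smallest ratio of highest to lowest value, 1.22.

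Akt1 and Pik3r1 were the most abundant of the 8, with means of 59.3 and 53.3 FPKM over the 6 libraries, higher than 96.0% and 95.4% of the genes tested. Irs2 (9.54 FPKM), Akt2 (6.97 FPKM), Tbc1d4 (5.38 FPKM) and Insr (5.05 FPKM) lay near the median gene, which had 5.74 FPKM. Igf1r (1.92 FPKM) and Irs1 (1.83 FPKM) were the lowest, above 15.6% and 14.4% of the genes tested. In this order, 2 steps held in every library: Pik3r1 stood 3.62 to 8.12 times above Irs2, and Insr 1.93 to 4.53 times above Igf1r. The other neighbours overlapped: Akt1 was above Pik3r1 in 4 of 6 libraries, Irs2 above Akt2 in 5, Akt2 above Tbc1d4 in 5, Tbc1d4 above Insr in 2 and Igf1r above Irs1 in 3.

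Insr, which encodes the insulin receptor, lies on chromosome 8 of GRCm38 (3122061 to 3279617, minus strand). It had 4.87, 5.78 and 3.82 FPKM in Nmi KO replicates 1, 2 and 3, against 5.86, 5.42 and 4.54 FPKM in WT replicates 1, 2 and 3. The groups overlapped, and the lowest value was in Nmi KO replicate 3. The means were 4.82 ± 0.978 FPKM in Nmi KO and 5.27 ± 0.676 FPKM in WT (SD, n = 3 each), and the log2 difference was -0.12 (SE 0.23). That difference lay on the other side of 0 after trimmed-mean rescaling (0.11) and without Nmi KO replicate 3 and WT replicate 1 (0.082). On the annotation, Insr spans the models Gm16180 and Vmn2r-ps88 of the other strand, and models also lie within the spans of Akt1 (Mir6939), Pik3r1 (Gm36638) and Tbc1d4 (Gm34417), all on the same strand as the gene; none of them was analysed here.

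Igf1r, which encodes the receptor for IGF1 and IGF2, lies on chromosome 7 (67952827 to 68233668, plus strand). Its FPKM was 1.50, 2.64 and 0.844 in Nmi KO replicates 1, 2 and 3, against 3.03, 1.93 and 1.60 in WT replicates 1, 2 and 3. Both ends of this range were in the libraries at the 2 ends of the milk share, and the groups overlapped. Means were 1.66 ± 0.908 FPKM in Nmi KO and 2.19 ± 0.747 FPKM in WT (SD, n = 3 each), and the log2 fold change was -0.29 (SE 0.27). It was 0.13 without those 2 libraries and 0.059 with the milk share as a covariate, so its sign was not stable.

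The balance of the receptors can be read within a library, where scaling cancels. Insr exceeded Igf1r by 3.25, 2.19 and 4.53 times in Nmi KO replicates 1, 2 and 3, against 1.93, 2.80 and 2.83 times in WT replicates 1, 2 and 3. Insr was the higher of the pair in all 6 libraries. The ratio overlapped between the genotypes, with a difference of 0.36 on the log2 scale beside SDs of 0.52 in Nmi KO and 0.31 in WT. A two-sided exact permutation test gave p = 0.4, where 3 against 3 mice cannot go below 0.1. The difference was -0.078 without Nmi KO replicate 3 and WT replicate 1.

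Irs1 and Irs2 encode the adaptors that carry the signal from both receptors to PI3-kinase. Irs1 lies on chromosome 1 (82233101 to 82291416, minus strand) and Irs2 on chromosome 8 (10984681 to 11008458, minus strand). The upstream windows of Irs1, Irs2 and Tbc1d4 are shown because these 3 genes shared a pattern over the libraries: each was highest in Nmi KO replicate 3 and lowest in WT replicate 1. The windows are RefSeq's on GRCm38.p6, from 250 bases before to 50 bases after the annotated start, 5′ to 3′, with the E-box letters CACGTG in capitals.
Irs1, chr1:82291390-82291689, minus strand: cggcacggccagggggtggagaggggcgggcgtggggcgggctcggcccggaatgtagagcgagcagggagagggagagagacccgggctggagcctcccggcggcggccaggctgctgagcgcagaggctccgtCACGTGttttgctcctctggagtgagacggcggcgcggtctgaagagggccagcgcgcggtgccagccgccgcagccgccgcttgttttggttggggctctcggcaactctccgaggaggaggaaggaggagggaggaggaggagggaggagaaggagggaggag
Irs2, chr8:11008880-11009179, minus strand: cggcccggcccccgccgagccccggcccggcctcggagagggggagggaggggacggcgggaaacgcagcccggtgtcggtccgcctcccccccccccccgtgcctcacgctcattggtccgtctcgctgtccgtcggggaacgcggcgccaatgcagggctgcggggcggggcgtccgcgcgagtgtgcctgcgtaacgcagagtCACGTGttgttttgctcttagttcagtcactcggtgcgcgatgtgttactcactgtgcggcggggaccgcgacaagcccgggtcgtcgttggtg
Tbc1d4, chr14:101609142-101609441, minus strand: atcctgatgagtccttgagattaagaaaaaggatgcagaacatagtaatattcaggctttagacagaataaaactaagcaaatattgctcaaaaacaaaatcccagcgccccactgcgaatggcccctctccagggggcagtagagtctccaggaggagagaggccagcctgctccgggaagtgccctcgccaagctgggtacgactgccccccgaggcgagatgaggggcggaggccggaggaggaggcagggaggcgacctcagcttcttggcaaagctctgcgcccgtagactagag
RefSeq windows were matched for 7 of the 8 genes, 12 windows in all, and Insr had none. CACGTG, which reads alike on both strands, occurred in 2 of the 12, once each in Irs1 and Irs2, and in 7.15% of the 32851 windows of all genes. Its first base was at -115 in Irs1 and -44 in Irs2, counted from the start annotated by RefSeq at 0. For Irs2 the whole window lies upstream of the gene span given above, which ends at 11008458. The 2 annotations thus place the Irs2 start differently. The letters TTCNNNGAA, the site STAT proteins bind, were in 1 of the 12 windows (the first of the 4 of Akt2) and in 8.30% of all windows. The forkhead letters TGTTTAC, searched on both strands, were in 1 of the 12 (the first of the 2 of Akt1) and in 3.65% of all windows. None of these 3 motifs overlapped another in the windows of the 8 genes, and a match is a description of letters only. The Irs1 and Irs2 windows were rich in G and C, at 71.3% and 72.0%, against 55.7% in the Tbc1d4 window and a median of 52.7% over all windows. This did not set them apart among the 8 genes. The second window of Akt1 (79.7%), that of Igf1r (76.0%) and the first of Pik3r1 (75.7%) were richer still. The remaining windows of Akt1, Akt2 and Pik3r1 ran from 43.7% to 58.7%.

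Irs1 had 1.79, 1.23 and 3.36 FPKM in Nmi KO replicates 1, 2 and 3, against 1.03, 1.24 and 2.33 FPKM in WT replicates 1, 2 and 3. The library with the most milk RNA in each genotype, replicate 3, held the most Irs1, and the groups overlapped. Means were 2.13 ± 1.11 FPKM in Nmi KO and 1.53 ± 0.698 FPKM in WT (SD, n = 3 each), and the log2 difference was 0.28 (SE 0.28). It was 0.014 without Nmi KO replicate 3 and -0.13 without both this library and WT replicate 1. The protein-coding model Gm9747 is annotated on the other strand over Irs1 and shares 2822 bases with its 9144-base transcript, and since the strand setting of the counting is not given, reads of the pair cannot be told apart.

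Irs2 had 8.89, 7.84 and 13.3 FPKM in Nmi KO replicates 1, 2 and 3, against 6.34, 12.6 and 8.28 FPKM in WT replicates 1, 2 and 3. A single library in each genotype, Nmi KO replicate 3 and WT replicate 2, stood above the rest, and the groups overlapped. The means were 10.0 ± 2.88 FPKM in Nmi KO and 9.09 ± 3.22 FPKM in WT (SD, n = 3 each). The log2 difference was 0.14 (SE 0.30), and it was -0.063 without WT replicate 1 and -0.062 without Nmi KO replicate 3. The antisense gene 9530052E02Rik, which shares 162 exon bases with Irs2, was listed at no more than 0.0420 FPKM. Irs2 was the more abundant substrate in all 6 libraries: the ratio of Irs1 to Irs2 was 0.202, 0.157 and 0.253 in Nmi KO replicates 1, 2 and 3, against 0.162, 0.0978 and 0.281 in WT replicates 1, 2 and 3. The difference between the genotypes was 0.28 on the log2 scale (two-sided exact permutation test, p = 0.7).

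Pik3r1, on chromosome 13 (101680563 to 101768217, minus strand), encodes the regulatory subunits that dock PI3-kinase on IRS proteins. It had 46.4, 63.7 and 53.2 FPKM in Nmi KO replicates 1, 2 and 3, against 50.7, 45.8 and 60.1 FPKM in WT replicates 1, 2 and 3. The groups overlapped over almost their whole range, with means of 54.4 ± 8.71 FPKM in Nmi KO and 52.2 ± 7.26 FPKM in WT (SD, n = 3 each) and a log2 difference of 0.056 (SE 0.27).

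Akt1, on chromosome 12 (112653821 to 112674884, minus strand), encodes an AKT kinase known in the mouse gland for its part in milk synthesis and survival. It was the steadiest of the 8, with 59.0, 55.1 and 65.6 FPKM in Nmi KO replicates 1, 2 and 3, against 62.5, 53.8 and 59.7 FPKM in WT replicates 1, 2 and 3. Its highest value was 1.22 times its lowest, and only 2.49% of the genes tested had a smaller SD of log2(FPKM + 1) over the 6 libraries. The groups overlapped, with means of 59.9 ± 5.35 FPKM in Nmi KO and 58.7 ± 4.49 FPKM in WT (SD, n = 3 each). The log2 difference was 0.028 (SE 0.26), and its 95% confidence interval ran from -0.54 to 0.59. An even FPKM is not an even share of the RNA outside milk genes: per 1000000 FPKM outside the 19 milk genes, Akt1 stood at 390, 343 and 562 in Nmi KO replicates 1, 2 and 3, against 317, 327 and 429 in WT replicates 1, 2 and 3.

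Akt2, on chromosome 7 (27591552 to 27640826, plus strand), encodes the AKT kinase best known for insulin-stimulated glucose uptake in muscle and fat. It had 7.41, 7.39 and 3.71 FPKM in Nmi KO replicates 1, 2 and 3, against 10.04, 7.39 and 5.87 FPKM in WT replicates 1, 2 and 3. The range was wide and its ends were again Nmi KO replicate 3 and WT replicate 1, while the groups overlapped between 5.87 and 7.41 FPKM. Means were 6.17 ± 2.13 FPKM in Nmi KO and 7.76 ± 2.11 FPKM in WT (SD, n = 3 each), and the log2 difference was -0.31 (SE 0.29). Leaving out those 2 libraries gave 0.15. The pseudogene Akt2-ps matches 31.9% of the longest Akt2 transcript at 95% identity or more, so some reads of the pair may have been exchanged. Akt1 exceeded Akt2 by 7.95, 7.45 and 17.7 times in Nmi KO replicates 1, 2 and 3, against 6.23, 7.28 and 10.2 times in WT replicates 1, 2 and 3. Apart from Nmi KO replicate 3, the genotypes shared 1 range. The log2 difference was 0.39 (two-sided exact permutation test, p = 0.5), beside SDs of 0.69 in Nmi KO and 0.36 in WT. It was -0.0051 without Nmi KO replicate 3.

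**Figure D2:**
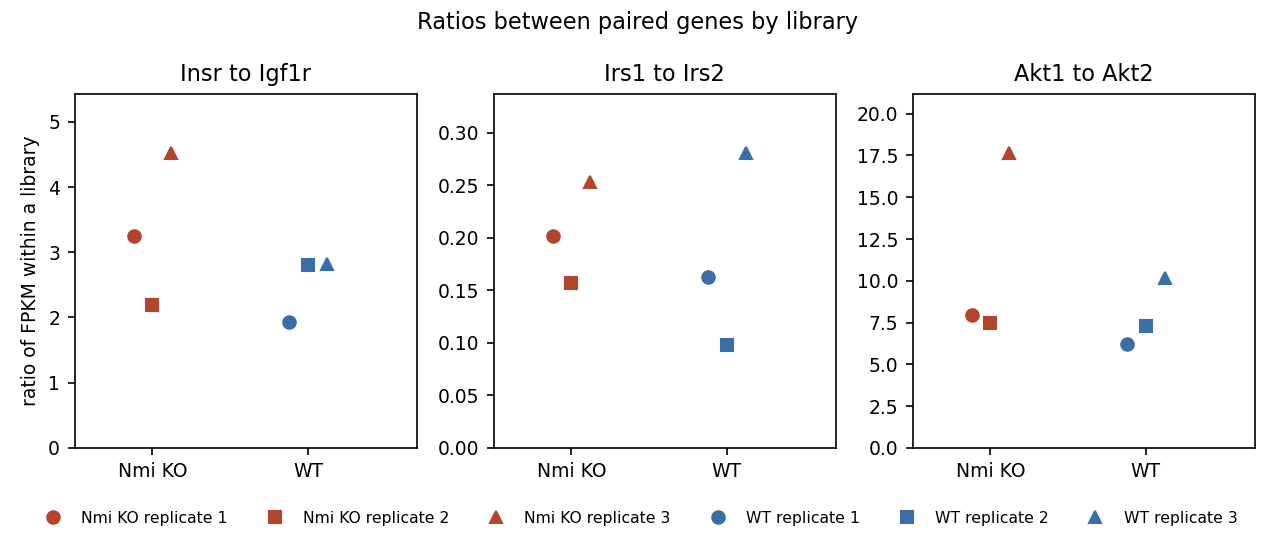
Ratio of FPKM between paired genes within each library (y axes, linear, starting at 0), with Nmi KO left of WT and symbols for the replicate. Insr exceeds Igf1r, Irs1 lies below Irs2 and Akt1 exceeds Akt2 in all 6 libraries, and the genotypes overlap in each panel.

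Tbc1d4, on chromosome 14 (101442360 to 101609191, minus strand), encodes a Rab GTPase-activating protein that AKT phosphorylates and that holds back glucose transporter vesicles in muscle and fat. It had 5.85, 5.12 and 9.66 FPKM in Nmi KO replicates 1, 2 and 3, against 2.70, 4.53 and 4.44 FPKM in WT replicates 1, 2 and 3. All 3 Nmi KO libraries were above all 3 WT libraries, as for 0.778% of the genes tested, with a small gap between 5.12 FPKM in Nmi KO replicate 2 and 4.53 FPKM in WT replicate 2. The means were 6.88 ± 2.44 FPKM in Nmi KO and 3.89 ± 1.04 FPKM in WT (SD, n = 3 each), a ratio of 1.77. On the log2 scale the difference was 0.67 (SE 0.28, with 0.058 to 1.28 as its 95% confidence interval), with an unadjusted p of 0.0347 and an adjusted p of 0.768 (limma with Benjamini-Hochberg adjustment), which did not pass. Of the 9767 genes, 62 had a smaller p. Earlier results from these data had already listed Tbc1d4 among the genes with the smallest p, so its place here is no independent finding. The fold change kept its sign under all 14 alternatives, between 0.24 and 0.89. The smallest adjusted p among them was 0.402 (limma, without Nmi KO replicate 2). Most of the 14 could not turn the sign. With groups that do not overlap, leaving out libraries or changing the pseudocount keeps it, and the filter and trend leave the estimate unchanged. The 3 rescalings (0.85 to 0.89) and the milk covariate (0.35) could have turned it. The fold change was 0.43 without Nmi KO replicate 3, 0.48 without WT replicate 1 and 0.24 without both. Per 1000000 FPKM outside the milk genes, Tbc1d4 stood at 38.7, 31.9 and 82.8 in Nmi KO replicates 1, 2 and 3, against 13.7, 27.6 and 31.9 in WT replicates 1, 2 and 3. On that scale the groups overlapped narrowly, at Nmi KO replicate 2 and WT replicate 3. Of the immune markers, Cd68 was lower in all 3 Nmi KO libraries, as given above. Cd3e was near 0 in every library, at most 0.118 FPKM in Nmi KO and listed at 0 in WT. The part of immune cells in the Tbc1d4 difference was not tested.

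**Figure D3:**
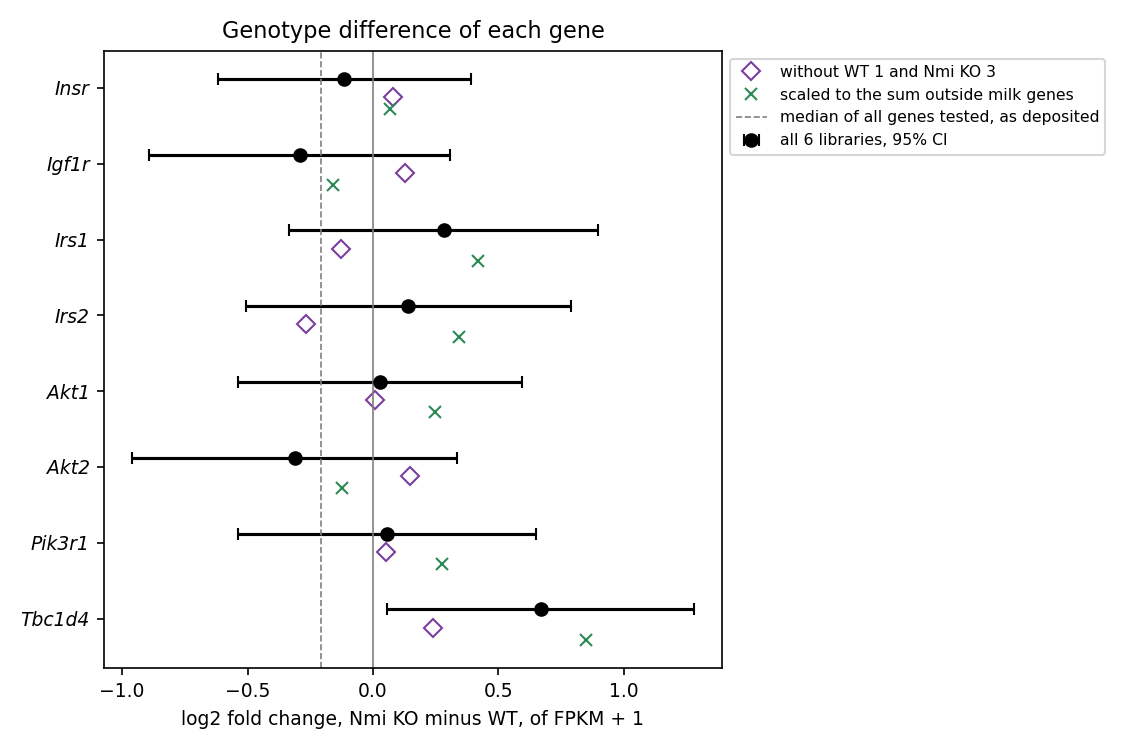
Log2 fold change of FPKM + 1, Nmi KO minus WT, for each gene (x axis); black points and bars are the limma estimate with its 95% confidence interval, diamonds leave out WT replicate 1 and Nmi KO replicate 3, crosses scale to the FPKM sum outside milk genes, and the dashed line is the median of all genes tested at -0.21. Tbc1d4, Akt1 and Pik3r1 lie right of 0 in all 3 settings, and Insr, Igf1r, Irs1, Irs2 and Akt2 change sides without the 2 libraries.

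The 8 genes fell apart by how they ran with the milk share of the library. This was looked at after the values were seen, as 16 relations (8 genes on 2 scales, n = 6 libraries, exact permutation tests, p adjusted over the 16). As log2(FPKM + 1), Irs1 was higher where the milk share was higher (Pearson r = 0.89, exact p = 0.0194, adjusted 0.05; Spearman rho = 0.94, exact p = 0.0167, adjusted 0.0444). Without the 2 libraries farthest from the median share, Nmi KO replicate 3 and WT replicate 1, its r was 0.98, and 98.7% of the genes tested had a lower r over all 6. Most genes ran the other way, with a median r of -0.82, and 13.1% of them had an r above 0.

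Tbc1d4 had r = 0.89 (exact p = 0.0389, adjusted 0.0691; rho = 0.66, exact p = 0.175, adjusted 0.233), but r = 0.0030 without those 2 libraries, so the relation rested on them. Irs2 had r = 0.64 (exact p = 0.174, adjusted 0.214; rho = 0.60, exact p = 0.242, adjusted 0.297), which turned to -0.61 without them. Neither relation kept its size without the libraries at the 2 ends. Akt1 had r = 0.21 (exact p = 0.714, adjusted 0.714; rho = 0.43, exact p = 0.419, adjusted 0.479) and 0.96 without them. Pik3r1 had r = 0.23 (exact p = 0.681, adjusted 0.714; rho = 0.37, exact p = 0.497, adjusted 0.530) and 0.32 without them.

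Insr, Igf1r and Akt2 were lower where the milk share was higher. For Insr r was -0.87 (exact p = 0.0222, adjusted 0.05; rho = -0.94, exact p = 0.0167, adjusted 0.0444), and -0.89 without the 2 libraries. For Igf1r r was -0.89 (exact p = 0.0222, adjusted 0.05; rho = -0.89, exact p = 0.0333, adjusted 0.0762), and -0.62 without them. For Akt2 r was -0.92 (exact p = 0.0236, adjusted 0.05; rho = -0.83, exact p = 0.0583, adjusted 0.117), and -0.81 without them. These lay within the bulk of all genes, since 39.9%, 34.4% and 26.2% of the genes tested had a lower r than Insr, Igf1r and Akt2.

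Both measures contain the library total, so the relations were also computed per 1000000 FPKM outside the milk genes, where that total cancels. This scale is still tied to the milk share, because it divides by the sum outside the milk genes, the rest of the library. The tie favours higher values where the milk share is high. On this second scale Irs1 kept its direction (r = 0.93, exact p = 0.00694, adjusted 0.05; rho = 1.0, exact p = 0.00278, adjusted 0.0222) and Tbc1d4 did too (r = 0.93, exact p = 0.0222, adjusted 0.05; rho = 0.94, exact p = 0.0167, adjusted 0.0444), with r = 0.98 and 0.53 without the 2 libraries. Igf1r (r = -0.77, exact p = 0.0736, adjusted 0.107; rho = -0.77, exact p = 0.103, adjusted 0.164) and Akt2 (r = -0.79, exact p = 0.0861, adjusted 0.115; rho = -0.77, exact p = 0.103, adjusted 0.164) stayed negative, with r = -0.41 and -0.32 without those libraries. Insr turned positive over the 6 libraries (r = 0.47, exact p = 0.319, adjusted 0.365; rho = 0.14, exact p = 0.803, adjusted 0.803) but had r = -0.45 without the 2 libraries. Irs2 (r = 0.84, exact p = 0.05, adjusted 0.08; rho = 0.66, exact p = 0.175, adjusted 0.233) turned to -0.30 without the 2 libraries. Akt1 (r = 0.87, exact p = 0.025, adjusted 0.05; rho = 1.0, exact p = 0.00278, adjusted 0.0222) and Pik3r1 (r = 0.83, exact p = 0.0208, adjusted 0.05; rho = 0.94, exact p = 0.0167, adjusted 0.0444) had r = 0.997 and 0.62 without them. Of the genes tested, 96.8%, 97.4%, 90.3%, 92.4% and 90.2% had a lower r on this scale than Irs1, Tbc1d4, Irs2, Akt1 and Pik3r1. For Insr, Igf1r and Akt2 the shares were 72.9%, 18.9% and 17.2%. Each genotype has 3 libraries, too few for a relation within it. Per 1000000 FPKM outside milk genes, the highest Irs1 was 5.52 times the lowest and the highest Tbc1d4 6.05 times, against 1.21 times for Insr.

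**Figure D4:**
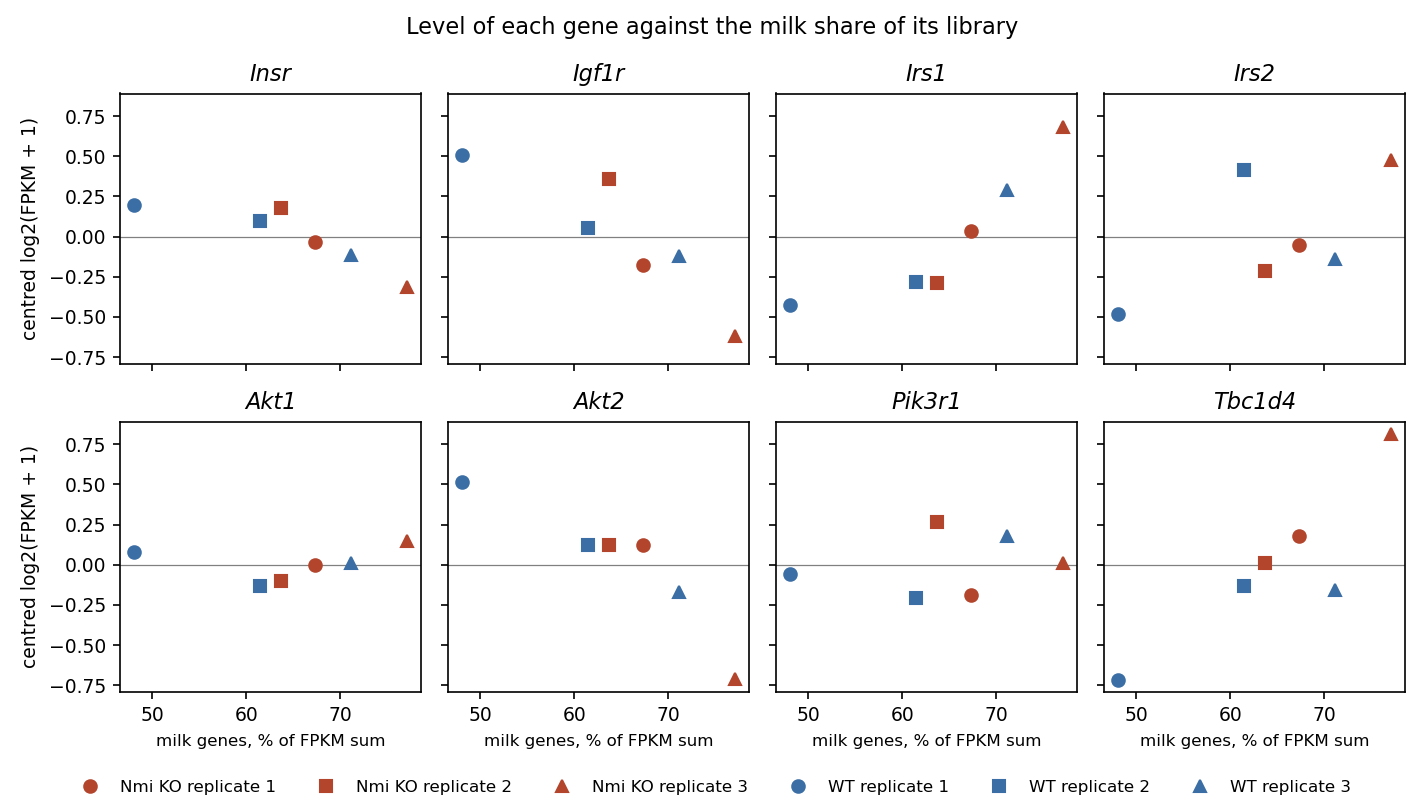
Level of each gene as log2(FPKM + 1), centred on its mean over the 6 libraries (y axes), against the percentage of the FPKM sum held by 19 milk protein genes (x axes), with 1 point for each library. Irs1 and Tbc1d4 are highest and Igf1r and Akt2 lowest in Nmi KO replicate 3, which has the highest milk share, 77.1%.

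The genes whose centred profile lay closest to a receptor or to Tbc1d4 were found by the root mean square difference in log2(FPKM + 1) over the 6 libraries. Closest to Insr were Tldc1 (0.02), Plekha8 (0.03) and Atad2b (0.03), where the median gene differed by 0.21. Tldc1 was at 0.763 to 1.53 FPKM and Plekha8 at 0.583 to 1.24 FPKM, levels at which this scale understates changes. The nearest genes named here are the smallest differences among all genes tested, over only 6 libraries. Closest to Igf1r were Osbpl11 (0.04), Mettl10 (0.04) and Crim1 (0.04), against a median of 0.25. Closest to Tbc1d4 were Mvd (0.12), an enzyme of the mevalonate pathway, Mfsd4 (0.12) and Acot6 (0.12), against a median of 0.68. Mvd had 12.6, 12.2 and 19.6 FPKM in Nmi KO replicates 1, 2 and 3, against 6.83, 12.4 and 11.6 FPKM in WT replicates 1, 2 and 3. Among the 8 themselves, Igf1r and Akt2 were the closest pair (0.17) and Akt2 and Tbc1d4 the farthest (0.81), while Irs1 lay 0.27 from Tbc1d4 and 0.35 from Irs2.

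Around the 8 genes, 77 other genes of the pathway were listed by role, and 61 of the 74 found in the table passed the filter. In these 61, 0 passed the adjusted threshold in either direction (limma with Benjamini-Hochberg adjustment, smallest adjusted p 0.768), beside 0% of all genes tested. An unadjusted p under 0.05 was found for 0 of the 61, beside 1.33% of all genes tested. In 53 of them the fold change was below 0, 31 lay above the all-gene median, and their median was -0.21, equal to that of all genes. Among the 61, 0 had groups that did not overlap, beside 4.61% of all genes tested.

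Of the ligands and IGF-binding proteins, Igf1 and Ins1 were under the filter, Igf1 at 0.0923 to 0.222 FPKM, and 8 of 12 were tested with a median log2 fold change of -0.16. Igfals, whose product stabilizes IGFs in complexes with binding proteins, had 37.0 ± 6.10 FPKM in Nmi KO and 26.8 ± 10.2 FPKM in WT (SD, n = 3 each), and the log2 difference was 0.51 (SE 0.32). Igfals differed by 0.22 without WT replicate 1, 0.17 without it and Nmi KO replicate 3, 0.77 without WT replicate 3 and 0.13 with the milk covariate. Igfbp3, a binding protein of IGFs, had 8.34 ± 4.54 FPKM in Nmi KO and 10.7 ± 3.74 FPKM in WT. Of the other receptors and adaptors, 7 of 11 were tested, all with fold changes below 0 and 2 of them above the all-gene median (median -0.33). Shc1, an adaptor to the Ras pathway, had 9.15 ± 1.27 FPKM in Nmi KO and 11.8 ± 2.49 FPKM in WT, and Grb2, its partner, 9.99 ± 3.10 FPKM in Nmi KO and 13.1 ± 3.07 FPKM in WT.

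Of the PI3-kinase subunits, 6 of 8 were tested (median -0.23). The catalytic subunit gene Pik3cb had 10.98 ± 4.59 FPKM in Nmi KO and 15.6 ± 2.91 FPKM in WT, a log2 fold change of -0.54 (SE 0.33). This was -0.18 without Nmi KO replicate 3, -0.042 without it and WT replicate 1, and -0.18 with the milk covariate. The regulatory subunit gene Pik3r2 had 3.82 ± 0.810 FPKM in Nmi KO and 4.87 ± 0.743 FPKM in WT, well under the level of Pik3r1. Of the brakes on the pathway, 11 of 14 were tested (median -0.25). Phlpp2, a phosphatase that acts on AKT, had 1.61 ± 0.937 FPKM in Nmi KO and 2.64 ± 0.997 FPKM in WT, and Trib3, a pseudokinase that binds AKT, 16.1 ± 3.99 FPKM in Nmi KO and 23.3 ± 7.34 FPKM in WT.

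All 16 genes of the kinase and mTOR group were tested (median -0.16), and 15 had fold changes below 0, with 10 above the all-gene median. Eif4ebp1, the translation repressor that mTOR inactivates, had 57.4, 62.3 and 39.1 FPKM in Nmi KO replicates 1, 2 and 3, against 137, 77.0 and 61.6 FPKM in WT replicates 1, 2 and 3. The groups met at Nmi KO replicate 2 and WT replicate 3, and the log2 fold change of -0.73 (SE 0.35, unadjusted p = 0.0602, adjusted p = 0.768, limma) was the lowest of the 61. It was -0.40 without WT replicate 1, -0.20 without this library and Nmi KO replicate 3, -0.27 with the milk covariate and -0.46 after trimmed-mean rescaling. Among FOXO factors, which AKT excludes from the nucleus, 3 of 4 were tested (median 0.02), with Foxo3 at 13.8 ± 2.10 FPKM in Nmi KO and 12.8 ± 2.68 FPKM in WT and Foxo4 at 5.34 ± 1.67 FPKM in Nmi KO and 5.96 ± 0.771 FPKM in WT.

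Of the glucose transport genes, 10 of 12 were tested (median -0.14). Hk1, a hexokinase, had 21.1 ± 6.10 FPKM in Nmi KO and 28.1 ± 6.61 FPKM in WT, a log2 fold change of -0.41 (SE 0.30). For Hk1 this was -0.19 without Nmi KO replicate 3, -0.26 without WT replicate 1, -0.043 without both and -0.075 with the milk covariate. Rab14, a Rab protein on which TBC1D4 acts, had 21.2 ± 5.42 FPKM in Nmi KO and 26.0 ± 4.15 FPKM in WT. The transporter genes, named here for their role after the values were seen, stood far apart in level: Slc2a1, which encodes GLUT1, had 82.3 ± 31.3 FPKM in Nmi KO and 84.4 ± 29.6 FPKM in WT, and Slc2a4, which encodes the insulin-responsive GLUT4, 1.66 ± 0.544 FPKM in Nmi KO and 1.66 ± 0.310 FPKM in WT.

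**Figure D5:**
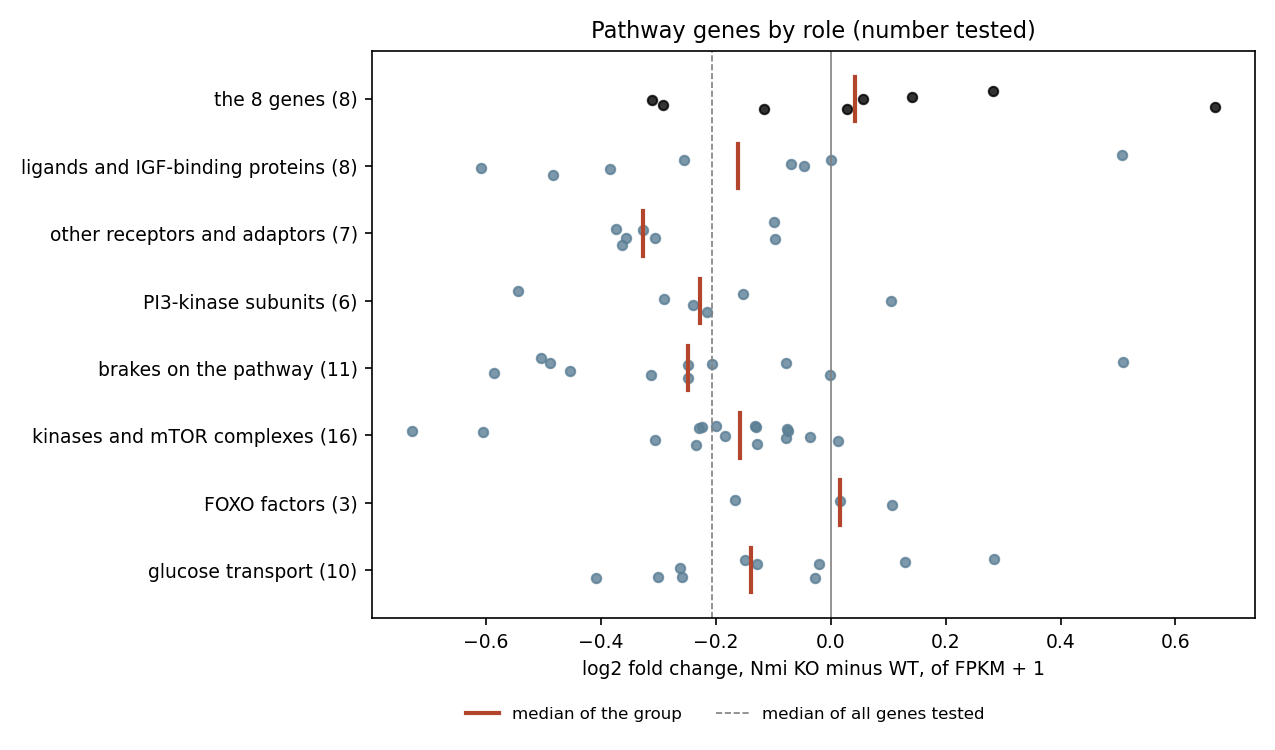
Log2 fold change of FPKM + 1, Nmi KO minus WT (x axis), for the 8 genes (black) and the 61 other tested pathway genes (blue) by role, with the number tested beside each role; red bars are group medians and the dashed line is the median of all genes tested at -0.21. Tbc1d4 is the rightmost point of all, and 53 of the 61 other genes lie left of 0, with 31 of them right of the dashed line.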

How the data were processed

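The authors deposited 1 table of FPKM for 6 libraries, 1 for each mouse. Per the submitters' processing notes, FastQC, TopHat, SAMtools and Cufflinks were used and the builds were mm10 and GRCm38. Versions, parameters and strand setting were not given in the sources used here. The absolute depth is unknown. Relative depth, from 456 genes between 0.001 and 0.1 FPKM, ran from 0.979 to 1.14 times that of WT replicate 1. FPKM sums ran from 379478 to 509453. Gapdh was listed at 0 to 0.0769 FPKM, so a 0 can be a failed estimate.

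Genes with at least 1 FPKM in at least 3 libraries were tested on log2(FPKM + 1) with limma 3.58.1 in R 4.3.3 (empirical Bayes with intensity trend, two-sided, Benjamini-Hochberg over 9767 genes, threshold 0.05); this scale understates changes of low genes. Ratios were tested by exact permutation. In simulated data for the same comparison and 9767 genes, 23% of changes of 1 and 79% of changes of 2 on the log2 scale were recovered, with 4 false calls. The changes were planted in genes with a mean log2(FPKM + 1) above 2, and Igf1r (1.50) and Irs1 (1.45) lay below that. The simulated noise was independent from gene to gene, without the shared run with the milk share seen in the real libraries. Nothing in the labels pairs mice across genotypes, or says whether they shared a litter or a day.

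The 8 genes and the pathway lists were chosen with earlier results of these data known. Besides them, the text names Nmi, 2 genes from each role with the smallest p (1 of these is not reported here), and 3 genes nearest in profile to Insr, Igf1r and Tbc1d4, without predicted models. Gene positions are from GENCODE mouse release 21, which held 97.2% of the tested symbols; copies were sought with BLAST 2.17.0 (95% identity over 50% of the longest transcript), and 0 other genes passed for any of the 8. The relations to milk share were added after the values were seen. Alternatives were another pseudocount (0.1), no filter, 3 rescalings, no trend, a milk covariate and left-out libraries.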

Additional observations from a re-analysis of the deposited data

How the results depend on the processing

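No paired analysis was possible because the labels give the mice no number shared between genotypes. The count of genes past the adjusted threshold was 0 in all fits but 1: without both WT replicate 1 and Nmi KO replicate 3 it was 1 (Gm7367, log2 difference 1.87, adjusted p = 0.0235, limma, named after its values were seen), and it was 0 whichever single library was left out. The count at an unadjusted p under 0.05, 130 genes, was 326 without a filter, 68 without both libraries, 25 without WT replicate 1, 634 without WT replicate 3, 1168 without Nmi KO replicate 2 and 51 without Nmi KO replicate 3. Of the 130, 13.8% were higher in Nmi KO. That share was 56.6% after trimmed-mean rescaling, 48.6% with quantile normalization, 43.1% when scaled outside the milk genes, 40.2% without a filter, 65.4% with the milk share as a covariate and 63.2% without both libraries. Leaving out 1 library gave 36% (WT replicate 1), 29.4% (Nmi KO replicate 3), 21.3% (Nmi KO replicate 1), 20.6% (WT replicate 2), 10.6% (Nmi KO replicate 2) and 8.99% (WT replicate 3).

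The median log2 difference of the 8 genes, 0.042, was 0.31 after trimmed-mean rescaling, 0.24 with quantile normalization and 0.26 when scaled outside the milk genes, where the median of all genes was 0.0094, -0.011 and -0.030. With single libraries left out it ran from -0.032 to 0.10. The median of all genes was -0.084 without Nmi KO replicate 3, -0.099 without WT replicate 1, -0.31 without Nmi KO replicate 2, -0.32 without WT replicate 3, and -0.0063 with the milk covariate. The log2 difference of the ratios then ran from 0.10 to 0.63 for Insr to Igf1r, from -0.094 to 0.67 for Irs1 to Irs2 and from -0.0051 to 0.62 for Akt1 to Akt2. Without both end libraries it was -0.078 for Insr to Igf1r and -0.16 for Akt1 to Akt2.

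With single libraries left out, the log2 difference ran from -0.23 to 0.014 for Insr, -0.55 to -0.056 for Igf1r, 0.014 to 0.50 for Irs1, -0.063 to 0.38 for Irs2, -0.039 to 0.086 for Akt1, -0.47 to -0.034 for Akt2 and -0.061 to 0.16 for Pik3r1. Insr turned to 0.11 with trimmed-mean rescaling, 0.093 with quantile normalization and 0.069 when scaled outside milk genes. With the milk covariate the signs turned for Insr (0.058), Igf1r (0.059), Akt2 (0.051), Irs1 (-0.090) and Irs2 (-0.11). Without both end libraries they turned for Insr (0.082), Igf1r (0.13), Akt2 (0.15), Irs1 (-0.13) and Irs2 (-0.27). For the 8 genes, 0 differences passed the adjusted threshold in any of these limma fits, and 1 of the 8, Tbc1d4, kept its sign in all of them. Because its FPKM did not overlap between the genotypes, the fits with left-out libraries could not turn that sign. The causes were not tested. With 3 mice a group, an unknown absolute depth and milk RNA that differs among libraries, small differences were not detectable.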
